A study of Homo sapiens with 12 samples.

Results

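Microtubules are hollow filaments built from dimers of alpha- and beta-tubulin, and each kind of tubulin comes from a family of closely related genes whose products are called isotypes. Among those represented on the array, 9 isotype genes were examined, together with MAP2, which encodes a protein that binds along the microtubule wall and is best known from the dendrites of neurons. They were chosen by name with their changes under erlotinib already known, so those changes are described and not tested. The 4 alpha-tubulin genes were TUBA1A, TUBA1B, TUBA1C and TUBA4A, and the beta-tubulin genes were TUBB2A, TUBB2B, TUBB3, TUBB4B and TUBB6. These 10 genes belong to 19775 that had a probe set paired with 1 gene symbol. For each gene the probe set brightest on average over the 12 arrays was used, and its other probe sets served as a check.

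Messenger RNA was measured on 12 one-colour arrays in PC9 and HCC827, established lines of human EGFR-mutant non-small-cell lung cancer. PC9 cells and HCC827 cells were each kept for 8 days in 2 µM erlotinib, an inhibitor of the EGFR kinase, or in DMSO, the solvent control, which gave 4 groups of 3 arrays. All cells grew in medium with 10% fetal bovine serum, renewed after 4 days. The labels describe dense plating in 150 cm flasks for erlotinib and sparser plating in 10 cm dishes for DMSO, whereas the series description places all cells in flasks, so vessel and density cannot be told apart from the drug. No label says that replicate arrays stem from independent cultures, so errors and p-values measure only the spread between these arrays, which may be technical.

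Signals were deposited as linear intensities scaled to the same trimmed mean of 150 on each array. A signal of 13 was the median of the whole table, and the 70th percentile was 83.7. Changes are given as differences in the mean log2 of (signal + 8), with a standard error (SE) pooled over all 4 groups, so the SE of a gene is the same in both lines. All 10 members reached the median of the table in at least 1 group and were among 13165 genes tested. Signals of different probe sets cannot be set against each other, so no isotype is called more abundant than another. In such bulk cultures, fewer cells of a type and less RNA per cell cannot be told apart. All 6 epithelial marker genes (EPCAM, CDH1, KRT7, KRT8, KRT18 and KRT19) lay above the table median on every array. The actin 3'/5' control ratio, which climbs when RNA is degraded, was 2.45 to 3.64 on the HCC827 erlotinib arrays and 2.10 to 2.21 on the HCC827 DMSO arrays. In PC9 it was 2.05 to 2.53 with erlotinib and 2.09 to 2.35 with DMSO.

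As background, the isotypes differ mainly in a short acidic tail that motor proteins and modifying enzymes bind. TUBA1B, TUBA1C and TUBB4B are expressed widely. TUBA1A, TUBB2A, TUBB2B and TUBB3 are known for their role in developing neurons, where mutations in TUBA1A, TUBB2B and TUBB3 disturb neuronal migration or axon guidance. TUBB3 is also studied in lung tumours, in relation to taxanes, drugs that bind beta-tubulin.

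With erlotinib the isotypes did not move as a block. TUBA1A, TUBB2A, TUBB2B and MAP2 were higher in both lines. TUBB3 and TUBB4B were lower in PC9. In HCC827 TUBB3 was little different and TUBB4B slightly lower, and TUBA1C was slightly lower in both lines. TUBA1B stayed within the spread of its arrays on the probe set used. TUBA4A was higher in PC9 and lower in HCC827, and TUBB6 was higher in PC9. In PC9, 9 of the 10 members had erlotinib arrays that did not overlap the DMSO arrays, 6 of them higher and 3 lower, where 64.9% of all genes tested had arrays that did not overlap and 64.7% passed the test. In HCC827 it was 6 members, 4 higher and 2 lower, where the shares of all genes were 62.2% and 51.8%. Of all genes, 20.3% passed as higher in both lines and 11.6% as lower in both. Nothing is read from these counts, since the members were chosen on this comparison.

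**Figure D1:**
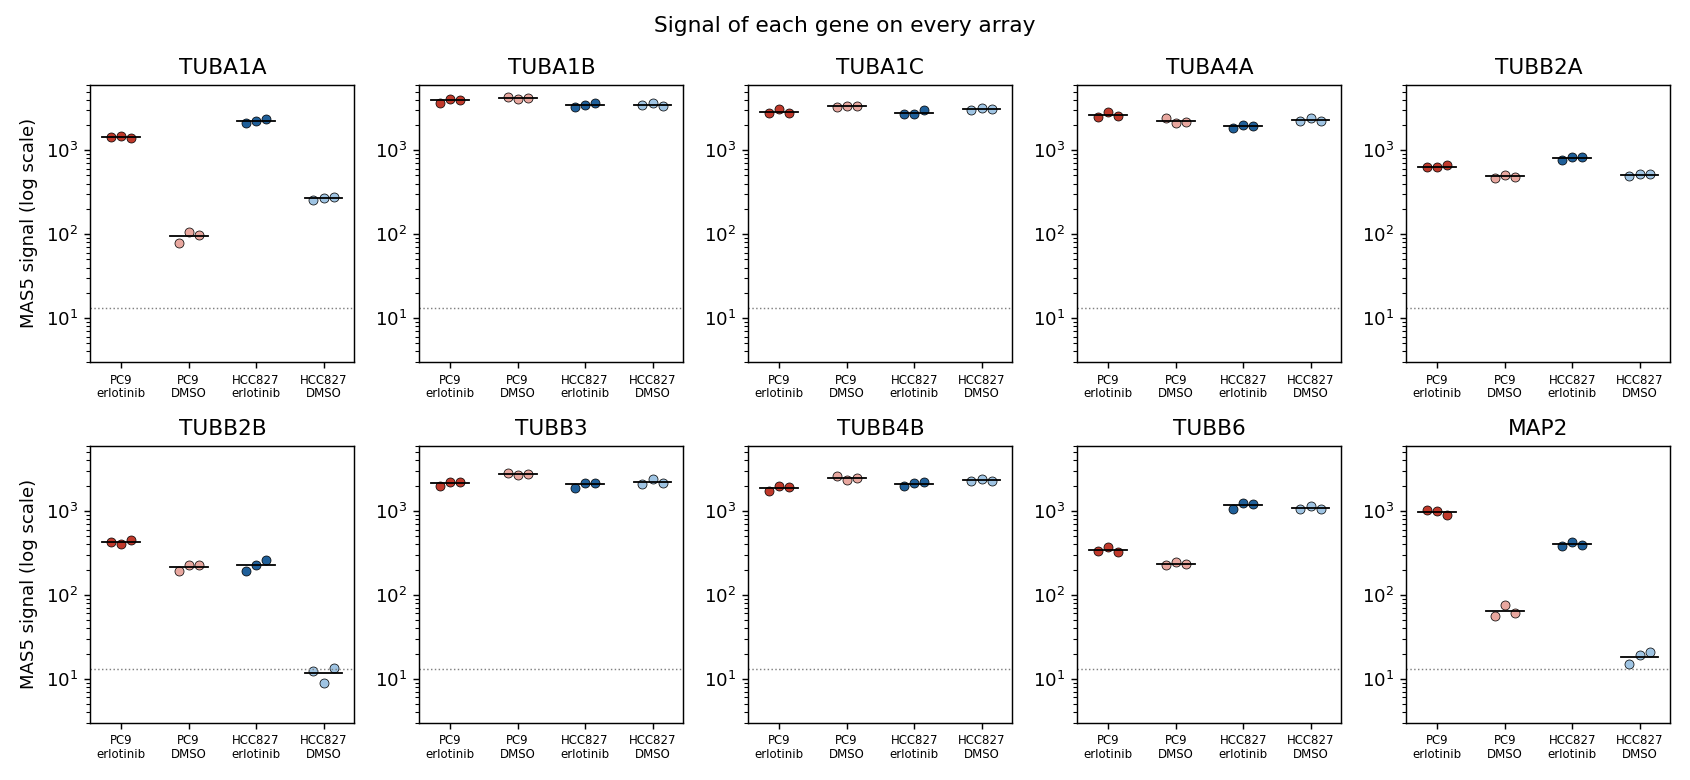
Signal of each member on each of the 12 arrays (log axis), 3 points per group, with erlotinib left of DMSO within each line. TUBA1A and MAP2 stand apart between the treatments in both lines, TUBB2B does so by far more in HCC827, and TUBA1B overlaps in both.

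TUBA1A, an alpha-tubulin prominent in young neurons, gave signals of 1454.1, 1480.7 and 1390 in PC9 with erlotinib, against 78.3, 105.7 and 97.6 in PC9 with DMSO. In HCC827 the signals were 2111.8, 2252 and 2347.3 with erlotinib and 252.5, 272.3 and 275.5 with DMSO. The groups lay far apart in both lines, and the spread within a group was small beside the gap between treatments. The mean signal was 15.4 times that of DMSO in PC9 and 8.39 times in HCC827. On the log2 scale the change was 3.84 (SE 0.09) in PC9 and 3.03 in HCC827, the 31st and 25th largest rise among all genes tested.

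TUBA1B, which encodes an alpha-tubulin found in most cell types, behaved unlike its neighbour. Its signals were 3702.8, 4099.7 and 3996.1 in PC9 with erlotinib, against 4330.8, 4074.6 and 4230.7 with DMSO. In HCC827 they were 3236.5, 3418.8 and 3669.2 with erlotinib, against 3466.5, 3642.1 and 3347.2 with DMSO. Treated and control arrays overlapped in both lines, with changes of -0.10 (SE 0.05) in PC9 and -0.02 in HCC827. The 4 other probe sets that passed the filter gave -0.22 to -0.32 in PC9 and -0.11 to 0.03 in HCC827, so the size in PC9 depended on the probe set, and 1 further probe set stayed at 3.4 or below on every array.

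TUBA1C, a widely expressed alpha-tubulin, was slightly lower with erlotinib. Signals were 2760.5, 3059.3 and 2742.4 in PC9 with erlotinib and 3282, 3380.2 and 3393.6 with DMSO, without overlap. In HCC827 they were 2716.9, 2680.1 and 3034 with erlotinib and 3029.4, 3220.2 and 3085.8 with DMSO, and there 1 treated array reached into the control range. The changes were -0.23 (SE 0.05) in PC9 and -0.15 in HCC827, and the other probe set gave -0.24 and -0.05.

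TUBA1B, TUBA1A and TUBA1C lie in a row on chromosome 12 of GRCh38.p14. TUBA1B occupies chr12:49127782-49131395 and TUBA1A chr12:49184795-49189080, both on the minus strand, with 53.4 kb between them. TUBA1C follows on the plus strand at chr12:49227926-49274600, after a gap of 38.8 kb. TUBA1A and TUBA1B, which have a single annotated start each, lie on the same strand and changed differently, so the 200 bases upstream of their starts are printed 5' to 3' from RefSeq (GRCh38.p14, minus strand). The window of TUBA1A is chr12:49189081-49189280 and that of TUBA1B is chr12:49131396-49131595. Capitals mark matches on either strand to the CCAAT box, to the GC box with the letters GGGCGG, to the TATA box with the letters TATAA, or to the core of the cAMP response element with the letters TGACGT. Also searched were the AP-1 site with the letters TGANTCA, the forkhead site with the letters GTAAACA, and the cell cycle homology region with the letters TTTGAA.
TUBA1A: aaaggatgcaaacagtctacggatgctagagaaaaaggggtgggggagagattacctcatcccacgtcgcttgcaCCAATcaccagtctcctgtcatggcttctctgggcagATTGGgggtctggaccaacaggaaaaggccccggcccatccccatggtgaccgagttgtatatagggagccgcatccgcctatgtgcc
TUBA1B: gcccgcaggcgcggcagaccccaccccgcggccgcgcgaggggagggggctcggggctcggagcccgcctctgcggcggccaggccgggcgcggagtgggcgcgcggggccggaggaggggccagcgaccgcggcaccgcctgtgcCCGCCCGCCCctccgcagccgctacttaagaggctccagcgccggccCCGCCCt
The TUBA1A window held 2 CCAAT boxes and none of the other motifs. The TUBA1B window held 3 GC boxes, 2 of them overlapping, and was 83.5% G and C, against 56% for TUBA1A. Of 35116 windows of this length before annotated starts, 28% held a CCAAT box and 40.1% a GC box, so neither match is rare. A match is a string of letters and does not show that a factor binds there.

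TUBA4A, an alpha-tubulin known from platelets and, through rare mutations, from motor neuron disease, moved in opposite directions in the lines. In PC9 the signals were 2486, 2832.1 and 2543 with erlotinib, against 2404.5, 2132.1 and 2172.9 with DMSO. In HCC827 they were 1847.1, 2002.2 and 1925.7 with erlotinib, against 2259.4, 2444.4 and 2207.7 with DMSO. Neither pair of groups overlapped, and the changes were 0.23 (SE 0.06) in PC9 and -0.26 in HCC827. The PC9 value depended on the scaling and was 0.0806 when each array was centred on its own median, while the lowest and highest HCC827 values under the alternative settings were -0.33 and -0.22. Opposite calls in the lines were found for 5.39% of all genes.

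Among the beta-tubulins, TUBB2A and its near copy TUBB2B were both higher with erlotinib, but by very different amounts. TUBB2A gave 627, 623.5 and 665.6 in PC9 with erlotinib, against 468.4, 505.4 and 486.1 with DMSO. In HCC827 it gave 763.4, 830.5 and 840.3 with erlotinib, against 493.3, 517.4 and 522.1 with DMSO. The groups did not overlap in either line, and the means were 1.31 and 1.59 times those of DMSO.

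TUBB2B gave 424.9, 400.7 and 448.5 in PC9 with erlotinib, against 192.1, 229.8 and 230 with DMSO. In HCC827 it gave 191.1, 228.2 and 263.2 with erlotinib, against 12.3, 9 and 13.6 with DMSO. The HCC827 control arrays thus sat at about the median of the table, while treated HCC827 arrays came into the range of untreated PC9. The log2 change was 0.94 (SE 0.12) in PC9 and 3.58 in HCC827, the 11th largest rise of all genes there. Because the control level was low, near the median of the table, the HCC827 value depended on the constant added to the signal, with 4.18 at a constant of 1 and 2.56 at a constant of 32.

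TUBB2A and TUBB2B lie on the minus strand of chromosome 6, at chr6:3153666-3157544 and chr6:3224277-3227653, with 66.7 kb between them. Their upstream windows are chr6:3157545-3157744 and chr6:3227654-3227853, printed here as for the alpha-tubulins because both genes moved the same way by such unlike amounts.
TUBB2A: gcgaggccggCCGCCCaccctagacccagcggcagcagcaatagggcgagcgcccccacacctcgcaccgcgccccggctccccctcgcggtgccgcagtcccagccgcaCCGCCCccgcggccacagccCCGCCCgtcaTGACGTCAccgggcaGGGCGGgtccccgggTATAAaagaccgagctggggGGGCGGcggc
TUBB2B: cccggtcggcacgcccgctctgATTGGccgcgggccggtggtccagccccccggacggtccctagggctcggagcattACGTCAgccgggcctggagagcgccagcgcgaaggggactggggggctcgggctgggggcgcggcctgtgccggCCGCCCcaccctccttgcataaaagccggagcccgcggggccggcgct
The TUBB2A window held 5 GC boxes, a TATA box and a palindrome that counts as 2 overlapping cAMP response element cores. The TUBB2B window held 1 CCAAT box, 1 GC box and 1 such core. That core was present in 6.32% of all windows and the TATA box in 15.4%. None of the AP-1, forkhead or cell cycle motifs was found in these 4 printed windows. The 3 annotated starts of MAP2 had no match to any of the motifs, which says only that these letters are absent from those windows.

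TUBB3, the class III isotype used as a marker of neurons, was lower with erlotinib in PC9, where it gave 2007.8, 2191.5 and 2204.2, against 2840.3, 2690.5 and 2758.7 with DMSO. In HCC827 the signals were 1889.6, 2168.8 and 2169.5 with erlotinib and 2106, 2403.1 and 2163.3 with DMSO, which overlapped. The changes were -0.37 (SE 0.06) and -0.10, so the direction of this neuronal isotype was not that of TUBA1A, TUBB2A and TUBB2B. A second probe set gave -0.58 in PC9 and -0.03 in HCC827.

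TUBB4B, a widely expressed isotype also found in cilia, followed the same course. Signals were 1715.9, 1979.6 and 1934.5 in PC9 with erlotinib, against 2581, 2355.3 and 2449.2 with DMSO. In HCC827 they were 1979.2, 2138.2 and 2201.8 with erlotinib, against 2296.2, 2372.1 and 2265.6 with DMSO. Treated arrays were below all control arrays in both lines, by -0.39 (SE 0.06) in PC9 and by -0.13 in HCC827, with -0.35 and -0.11 on the second probe set.

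TUBB6, the class V isotype, gave 335.8, 371.9 and 321.2 in PC9 with erlotinib, against 224.2, 243.4 and 233.7 with DMSO. In HCC827 it gave 1063.5, 1231 and 1216.6 with erlotinib, against 1051.7, 1150.5 and 1048.6 with DMSO. Only the PC9 groups stood apart, with a change of 0.54 (SE 0.08), while the HCC827 arrays overlapped at a change of 0.11. HCC827 erlotinib replicates 2 and 3 had actin ratios of 2.99 and 3.64, above those of the other arrays, and without them the HCC827 change was -0.0255.

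MAP2, which stabilises and spaces microtubules in dendrites, gave 1027.8, 996.4 and 906.9 in PC9 with erlotinib, against 56.1, 75.1 and 61.2 with DMSO. In HCC827 the signals were 386.7, 429.1 and 396 with erlotinib, against 14.8, 19.2 and 20.8 with DMSO. Every treated array was far above every control array, and HCC827 controls were close to the table median. The means were 15.2 and 22.1 times those of DMSO. The rise in PC9 was the 33rd largest of all genes tested, with a log2 change of 3.78 (SE 0.11).

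The second MAP2 probe set was dimmer and showed the same direction. It gave 121.2, 152.6 and 108.5 in PC9 with erlotinib, against 12, 15.8 and 15.4 with DMSO. In HCC827 it gave 35.9, 32.4 and 36.3 with erlotinib, against 3.9, 5.4 and 5.4 with DMSO. Its log2 changes were 2.59 and 1.73, smaller than on the bright probe set, and the low control signals lie where the added constant of 8 shrinks a difference.

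**Figure D2:**
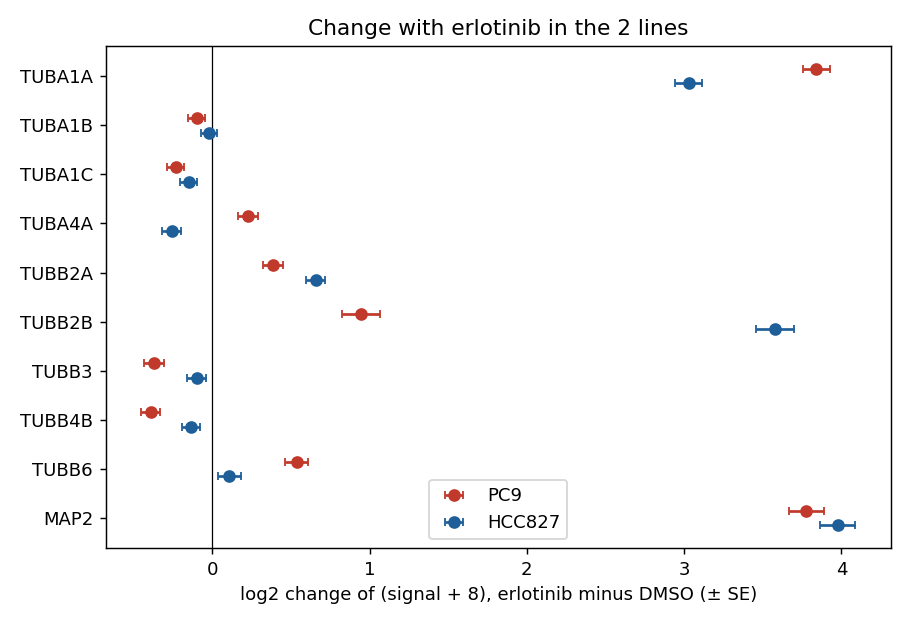
Log2 change of (signal + 8), erlotinib minus DMSO, for each member in PC9 and HCC827, with bars of 1 SE. TUBA1A and MAP2 lie above 3 in both lines, TUBB2B does so in HCC827 alone at 3.58, and TUBA4A lies on opposite sides of 0.

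Several members share sequence with other tubulins, which touches how the probe sets read them. Of the 10 probe sets used, 5 carry the maker's suffix for probes that may also match other genes (TUBA1B, TUBA1C, TUBB2B, TUBB3 and TUBB4B), and part of their signal may come from related transcripts. The TUBA1A probe set carries the suffix for probes shared by several transcripts, which may include those of related genes, and TUBA1A had no second probe set as a check. A probe set that the annotation pairs with both TUBB2A and TUBB2B was left out. The members had 19 probe sets in all, and 8 of the 9 that were not used passed the filter.

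Whether the neuronal members came with other neuronal genes was described with an 11-gene list of neuron markers. On every array, 7 of the 11 (NEFL, NEFM, SYP, SNAP25, ELAVL3, ELAVL4 and GAP43) were below the table median. The summed signal of the list was 440.3 to 460.5 in PC9 with erlotinib, against 605.2 to 668.7 with DMSO, and 114.8 to 155.9 in HCC827 with erlotinib, against 75.9 to 80 with DMSO. INA, which encodes the neuronal filament protein internexin, was the 1 marker above the table median on all arrays. It fell in PC9 (log2 change -0.73, SE 0.10, limma adjusted p = 4.95e-06) and rose in HCC827 (1.26, adjusted p = 1.81e-08). The INA mean in PC9 was 269 with erlotinib and 452 with DMSO, a large part of the summed list. NEFH, another filament gene, did not pass in PC9 (-0.03, adjusted p = 0.843), where its means were 149 and 152. In HCC827 NEFH rose (0.36, adjusted p = 0.00744).

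Of the other cell types, the endothelial markers PECAM1 and CDH5 were present in PC9, with a summed list of 653.3 to 704.3 with erlotinib and 894.7 to 988 with DMSO. PECAM1 fell there (-0.71, adjusted p = 4.95e-06) and CDH5 rose (0.72, adjusted p = 3.96e-05), while VWF was below the table median on every array. In HCC827 the sum was 9 to 16.8 with erlotinib and 10 to 12.3 with DMSO. The 3 leukocyte markers measured were below the table median on every array. Of 5 fibroblast markers, COL1A2, COL3A1 and DCN were below it on every array, while LUM and COL1A1 rose in both lines. The summed fibroblast list was 380.7 to 460.9 in PC9 with erlotinib, against 73.2 to 99.2 with DMSO, and 623.3 to 683.1 in HCC827 with erlotinib, against 154.4 to 178.2 with DMSO. The part of these lists in the members' changes was not tested.

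The difference between the lines was not used to choose the members and was tested in limma for untreated and for treated arrays, over all 13165 genes with Benjamini-Hochberg adjustment. These contrasts use the same arrays as the changes above, and the difference between the treated lines also contains those changes. In DMSO, PC9 was higher than HCC827 for 4 members (TUBA1B, TUBB2B, TUBB3 and MAP2), lower for 2 (TUBA1A and TUBB6), and 4 members did not pass. The lines differed at this threshold for 76.2% of all genes, 36.8% with PC9 higher and 39.4% with PC9 lower, so 6 of 10 is no more than the background share. For 7 members the DMSO arrays of the lines did not overlap, where that held for 78.6% of all genes. TUBB2B was the most unlike, with signals of 192.1 to 230 in PC9 against 9 to 13.6 in HCC827 and a log2 difference of 3.52 (95% interval 3.27 to 3.78, adjusted p = 8.75e-14). TUBB6 went the other way at -2.17 (-2.33 to -2.02, adjusted p = 9.98e-14).

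The TUBB2B difference was 2.51 with a constant of 32 and 4.12 with a constant of 1, outside that interval. MAP2 was also higher in untreated PC9, by 1.46 (1.22 to 1.69, adjusted p = 3.09e-09). As the HCC827 controls were near the table median, this size too depended on the constant, with 0.93 at a constant of 32 and 1.76 at a constant of 1. TUBA1A was lower there by -1.44 (-1.62 to -1.26, adjusted p = 1.64e-10). The differences of TUBB3 (0.31, adjusted p = 0.00025) and TUBA1B (0.27, adjusted p = 0.000166) were small and rested on the scaling. After quantile normalization TUBB3 no longer passed (adjusted p = 0.148) and TUBA1B was lower in PC9 (-0.084, adjusted p = 0.0275). For TUBA4A the interval in DMSO ran from -0.17 to 0.09 and for TUBB2A from -0.20 to 0.06, which leaves room for small differences either way. After quantile normalization TUBA4A was lower in PC9 (-0.26, adjusted p = 0.000179). TUBA1C (0.11, -0.0065 to 0.22) and TUBB4B (0.09, -0.03 to 0.21) did not pass, and both had the opposite sign after quantile normalization (-0.22 and -0.14).

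With erlotinib, PC9 was higher for TUBA1B, TUBA4A, TUBB2B and MAP2, lower for TUBA1A, TUBB2A, TUBB4B and TUBB6, and 2 members did not pass. Of all genes 76.5% differed between treated PC9 and treated HCC827, 36.3% with PC9 higher and 40.1% with PC9 lower. The arrays of 7 members did not overlap, where that held for 76.8% of all genes. MAP2 was higher in treated PC9 by 1.26 (1.03 to 1.49, adjusted p = 2.11e-08), and TUBB2B by 0.89 (0.63 to 1.14, adjusted p = 4.45e-06). TUBA4A was higher in treated PC9 by 0.44. This value contains its opposite changes with erlotinib, which were known when it was chosen, so no p-value is given.

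TUBB6 was lower in treated PC9 than in treated HCC827, at -1.75 (adjusted p = 2.06e-12). TUBA1A was at -0.63 (adjusted p = 5.05e-06). TUBB2A was at -0.34 and TUBB4B at -0.17, and neither gene passed in DMSO. Both values contain the known changes with erlotinib, so no p-value is given for them. TUBB4B passed by little, its arrays overlapped, and its call was lost without PC9 erlotinib replicate 1 and without HCC827 erlotinib replicate 3. The call of TUBA1B (0.19, adjusted p = 0.00313) was lost with median centring of the arrays (adjusted p = 0.059), and its sign turned after quantile normalization (-0.021). TUBA1C (0.02, -0.09 to 0.14) and TUBB3 (0.04, -0.09 to 0.17) did not pass.

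**Figure D3:**
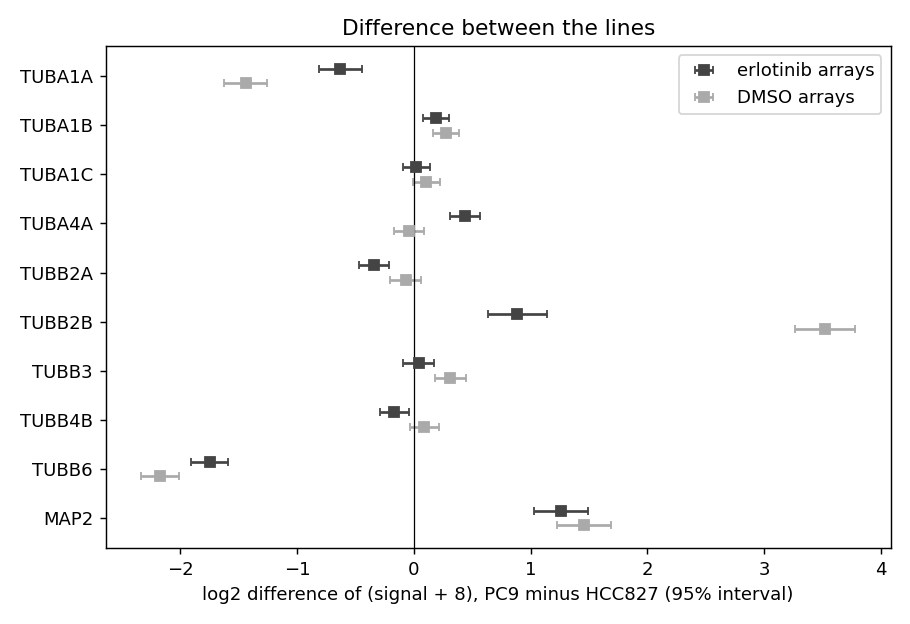
Log2 difference of (signal + 8), PC9 minus HCC827, for each member on erlotinib arrays (dark) and DMSO arrays (light), with 95% intervals. TUBB2B lies at 0.89 on erlotinib arrays and at 3.52 on DMSO arrays, while TUBB6 lies at -1.75 and -2.17.

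Genes whose profile over the 12 arrays was most like that of a member were found by the root mean square difference of log2 values, each gene centred on its own mean. For TUBA1A they were the stress-induced genes ATF3 (0.27) and DUSP1 (0.31) and the proteoglycan gene LUM (0.37). For MAP2 they were FILIP1L (0.33), PSG5 (0.42) and MRAS (0.52). TUBB2B was closest to LAYN (0.33), NIBAN1 (0.41) and INHBA (0.42). TUBB3 was closest to CCT2 (0.05), a subunit of the chaperonin that folds tubulin, then TTC27 and WDR54, at 0.05 and 0.06. A gene with small changes has many close profiles, so these distances are not comparable between members.

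Around the members, 7 lists with 100 other genes of microtubule biology were followed, of which 81 were tested and 12 were under the filter. A further 4 shared every probe set with another gene, and 3 were not analysed here. The lists, like the members, were chosen with earlier results of these data known. Genes named below were picked for the largest called changes, so their adjusted p-values are descriptive and not independent evidence of a change. In PC9, 35 of the 81 rose with erlotinib, 28 fell and 18 did not pass, where 36.4% of all genes rose and 28.3% fell. In HCC827, 27 rose, 12 fell and 42 did not pass, where 32.3% of all genes rose and 19.5% fell. These shares of all genes are the background for the counts of each list below, and no set test was run. Their median log2 change was 0.05 in PC9 and 0.12 in HCC827, beside 0.05 and 0.07 over all genes. With each array centred on its median, which moved the median of all genes by -0.15 in PC9 and -0.07 in HCC827, 22 rose and 33 fell in PC9, and 21 rose and 14 fell in HCC827. Of all called genes, 56.2% were higher with erlotinib in PC9 and 62.3% in HCC827, and with that centring 41.6% and 50.4%.

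The other tubulins had 7 tested genes, of which 2 rose and 3 fell in each line. TUBB1, the isotype of platelets, fell to a mean signal of 23.9 ± 4.10 with erlotinib in PC9, against 50 ± 1.95 with DMSO (SD, n = 3 each). In HCC827 it fell to 21 ± 2.36, against 46.6 ± 0.86, and the log2 changes were -0.87 and -0.92 (limma adjusted p = 4.92e-06 and 5.71e-06). TUBG1, the gamma-tubulin that nucleates microtubules at centrosomes, also fell in both (-0.60, adjusted p = 3.47e-05, and -0.44, adjusted p = 0.00108), though its HCC827 call was lost with the actin ratio as a covariate (adjusted p = 0.0979). TUBB4A, a brain isotype, had a mean of 13.6 with erlotinib and 1.63 with DMSO in HCC827. It passed the filter through the treated HCC827 arrays alone, so no p-value is given for this rise. The size of this rise depended on the added constant, at 0.43 with a constant of 32 and 2.54 with a constant of 1, and in PC9 the means were 1.03 with erlotinib and 1.13 with DMSO. TUBD1, a tubulin of centrioles, rose in PC9 (0.42, adjusted p = 8.19e-05). In HCC827 TUBD1 did not pass (-0.03), but with all probe sets averaged it was called lower there (-0.25, adjusted p = 0.0123).

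Of the 11 tested proteins that bind along the microtubule lattice, to which MAP2 is related in function, 7 rose and 2 fell in PC9, and 5 rose and 0 fell in HCC827, with median changes of 0.49 and 0.28. DCLK2, a doublecortin-like kinase, rose in PC9 to 181.5 to 236 with erlotinib, against 0.5 to 2.9 with DMSO. It passed the filter through the treated PC9 arrays alone, so no p-value is given for this rise. Its controls lay below the table median, so the size of the rise is not well fixed, at log2 1.52 with all probe sets averaged and 6.26 with a constant of 1. In HCC827 its signals were 4.6 to 7 with erlotinib and 0.9 to 4.1 with DMSO, all below the table median, and its call there (adjusted p = 0.0222) was lost with median centring (0.0663). MAP1B, a protein of growing axons, rose in HCC827 to 1542.6 to 1645.6 with erlotinib, against 457.5 to 529.5 with DMSO (1.71, adjusted p = 1.02e-12). In PC9 its change was 0.15 (adjusted p = 0.028), lost with median centring (0.94). MAP9, a spindle protein, rose in both lines (1.25, adjusted p = 1.09e-09, and 0.90, adjusted p = 1.32e-07). MAP7D2, a partner of kinesin-1, rose in both, with mean signals of 20.6 with erlotinib and 4.47 with DMSO in PC9, and 28.7 with erlotinib and 8.90 with DMSO in HCC827. It passed the filter through the treated arrays alone, so no p-values are given for these rises. Between constants of 32 and 1 its change lay at 0.53 to 2.00 in PC9 and 0.57 to 1.603 in HCC827.

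Growth and end-binding factors were mixed, with 6 of 13 rising and 3 falling in PC9 and 3 rising and 1 falling in HCC827. With median centring the PC9 split turned to 3 rising and 5 falling. MAPRE3, an end-binding protein, rose in PC9 (0.58, adjusted p = 9.01e-05) and in HCC827 (0.38, adjusted p = 0.00433), and CLASP1, a rescue factor, rose in PC9 (0.60, adjusted p = 1.18e-05). CLIP2, a plus-end linker protein, rose in HCC827 (0.75, adjusted p = 0.000145, and 0.46 at a constant of 32). SLAIN1, a partner of the polymerase at plus ends, fell in PC9 (-0.89, adjusted p = 3.49e-06) and rose in HCC827 (0.49, adjusted p = 0.00177). The HCC827 calls of MAPRE3 and SLAIN1 were lost with the actin ratio as a covariate (adjusted p = 0.337 and 0.0955).

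Among 10 destabilising and severing factors, 3 rose and 6 fell in PC9, and 2 rose and 4 fell in HCC827. STMN3, a stathmin that binds free tubulin, fell in both lines (-1.58, adjusted p = 6.11e-10, and -0.60, adjusted p = 7.53e-05). KIF2C, a depolymerising kinesin of mitosis, fell as well (-1.13, adjusted p = 3.56e-09, and -0.61, adjusted p = 8.71e-06). The severing enzyme KATNAL1 rose in both (0.86, adjusted p = 1.66e-06, and 0.38, adjusted p = 0.00519), and FIGN, another severing enzyme, rose in PC9 (1.09, adjusted p = 2.72e-07).

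Tubulin folding genes moved differently in the lines. Of 19 chaperonin, prefoldin and tubulin cofactor genes, 2 rose and 11 fell in PC9 (median -0.26), whereas 6 rose and 3 fell in HCC827 (median 0.08). The difference between the changes passed for 15 of them with the lower change in PC9 and for 2 with the higher, where 24% and 21.3% of all genes passed in those directions and 45.2% in either. CCT7, a chaperonin subunit, fell in PC9 (-0.52, adjusted p = 3.29e-05), and so did the prefoldin PFDN2 (-0.65, adjusted p = 2.05e-06). Neither passed in HCC827 (0.08 and 0.02). TBCEL, which breaks up tubulin dimers, rose in both (1.22, adjusted p = 7.69e-10, and 0.48, adjusted p = 6.2e-05). The cofactor TBCD rose in HCC827 (0.84, adjusted p = 9.07e-06), a call lost when all its probe sets were averaged (adjusted p = 0.427).

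Of 19 tubulin-modifying enzymes, 14 rose and 3 fell in PC9, and 9 rose and 1 fell in HCC827 (medians 0.37 and 0.31). Of all genes, 36.4% rose in PC9 and 32.3% in HCC827. The counts depended on the processing. With median centring 7 rose and 3 fell in PC9, and 7 rose and 2 fell in HCC827. After quantile normalization 11 rose and 3 fell in PC9, and 7 rose and 3 fell in HCC827. A stricter filter at a signal of 83.7 kept 9 of them, with 6 rising and 3 falling in PC9 and 6 rising and 0 falling in HCC827. VASH2, which cuts the last tyrosine from alpha-tubulin, rose in HCC827 to a mean of 139 ± 13.7 with erlotinib, against 35.8 ± 1.89 with DMSO (SD, n = 3 each; 1.75, adjusted p = 1.05e-08). With all probe sets averaged the VASH2 change was 0.91. Its partner SVBP rose there too (1.29, adjusted p = 1.87e-09), and in PC9 the calls of VASH2 and SVBP were lost with median centring (adjusted p = 0.29 and 0.185). TTLL12 fell in PC9 (-1.37, adjusted p = 6.63e-10), while the glycylase TTLL3 rose there to a mean of 35.8 with erlotinib, against 11.4 with DMSO. The DMSO mean of TTLL3 lay below the table median in PC9 and close to it in HCC827. It passed the filter mainly through treated arrays, so no p-value is given for this rise. The TTLL3 change was 0.57 with all probe sets averaged and 1.64 with a constant of 1. Of the pair that couples free tubulin to decay of tubulin mRNA, SCAPER rose in PC9 (0.49, adjusted p = 0.000399), the other gene did not pass there, and neither passed in HCC827.

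**Figure D4:**
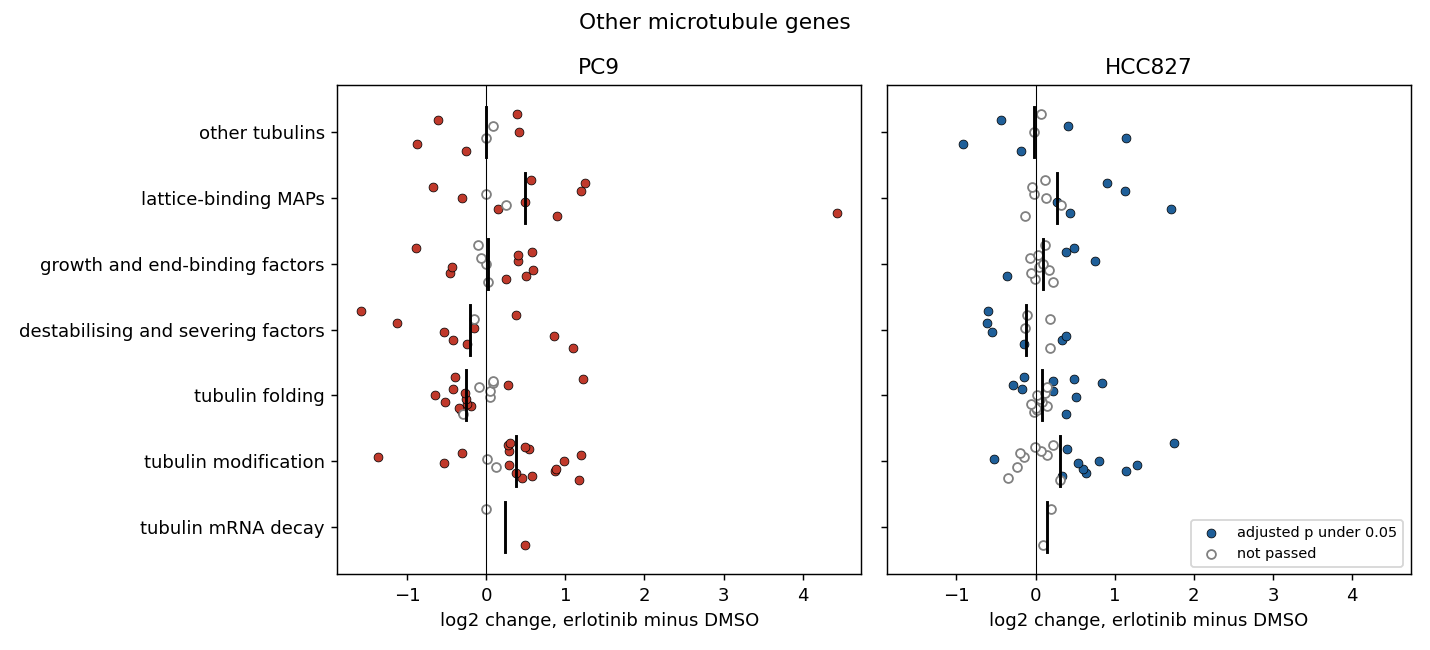
Log2 change of (signal + 8), erlotinib minus DMSO, of the tested genes in each of the 7 microtubule lists in PC9 and HCC827. The folding genes lie mostly below 0 in PC9 (11 of 19 fell), and the modifying enzymes lie mostly above it (14 of 19 rose). Of all genes, 28.3% fell and 36.4% rose in PC9.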

How the data were processed

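RNA of PC9 and HCC827 cells was hybridised to 12 HG-U133 Plus 2 arrays. Extraction used an RNeasy Plus kit and labelling a NuGEN Ovation amplification with biotin, per the labels. The authors deposited a linear signal intensity for every probe set on each array, made with MAS5 per the submitters' processing notes (version not given), and the values show a 2% trimmed mean of 150 on every array. The table holds no detection calls, and the number of arrays limits the precision.

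Of 54675 probe sets, 41091 are paired with 1 gene symbol (41037 of these were found by gene ID in the gene name table) and 1801 with several. The brightest probe set by mean log2 signal over the 12 arrays stood for each of 19775 genes. Genes with at least 1 group mean at the table median (signal 13) were kept, which left 13165. Log2 of (signal + 8) was fitted with limma 3.58.1 (R 4.3.3) as a mean for each group, with moderated variances, an intensity trend and Benjamini-Hochberg adjustment at 0.05. The procedure was tested on simulated data.

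The members and lists were chosen with earlier results of these data known. Named genes are the members, up to 4 called genes per list with the largest absolute change in either line, and 3 genes of like profile per member, given for 4 members. Alternatives were other constants, quantile normalization, median centring, other filters, all probe sets averaged or tested singly, no variance trend, only the arrays compared, a replicate block, a covariate for the actin 3'/5' ratio, and leaving out arrays. Promoter windows are from the RefSeq table, which covers all 10 members. The 200 bases before each start were searched on both strands.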

Additional observations from a re-analysis of the deposited data

Results flagged for a closer look

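TUBA4A stood out because all 3 PC9 erlotinib arrays were above the PC9 DMSO arrays while all 3 HCC827 erlotinib arrays were below the HCC827 DMSO arrays. Its log2 change in PC9 minus that in HCC827 was 0.49, with a PC9 change of 0.0806 under median centring, and the difference was not tested, since the gene was chosen on these changes.

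Of the 25 named genes of the microtubule lists, 20 had changes with erlotinib that differed between the lines in limma's test of the difference (adjusted over all genes tested), 9 with the higher change in PC9 and 11 with the lower. For all genes the share was 45.2%, but the named genes were picked for large changes, so the shares are not alike in kind. The values are the log2 change in PC9 minus that in HCC827. For DCLK2, TUBB4A, TTLL3 and VASH2 at least 1 group mean lay below the table median, so the size of their difference depends on the constant added to the signal and only its direction is read. DCLK2 and TUBB4A passed the filter through 1 treated group alone, and TTLL3 passed it mainly through treated arrays. DCLK2, TUBB4A and TTLL3 are included in these counts but given without a p-value. Higher in PC9 were DCLK2 (4.00), TTLL3 (1.05), FIGN (0.90, adjusted p = 0.000223) and TBCEL (0.74, adjusted p = 4.31e-05). KATNAL1 (0.48, adjusted p = 0.0133), TUBD1 (0.45, adjusted p = 0.00213) and CLASP1 (0.43, adjusted p = 0.00803) were also higher there. So were SCAPER (0.40, adjusted p = 0.0308) and MAP9 (0.35, adjusted p = 0.0188).

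Lower in PC9 were MAP1B (-1.56, adjusted p = 4.05e-10), VASH2 (-1.44, adjusted p = 7.6e-06) and SLAIN1 (-1.38, adjusted p = 3.75e-06). So were TTLL12 (-1.23, adjusted p = 5.63e-07) and TUBB4A (-1.15). SVBP (-0.999, adjusted p = 3.2e-06), STMN3 (-0.97, adjusted p = 2.82e-05), TBCD (-0.75, adjusted p = 0.000959), PFDN2 (-0.67, adjusted p = 0.00015), CCT7 (-0.60, adjusted p = 0.000543) and KIF2C (-0.51, adjusted p = 0.00167) were lower there as well. None of these differences of changes was rerun under the alternative settings. The HCC827 rise of TBCD was 0.08 with all probe sets averaged, and the HCC827 call of SLAIN1 was lost with the actin ratio as a covariate.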

How the results depend on the processing

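Of 500 values of the 20 tested differences of members between the lines, 475 kept their direction and their side of the threshold. Quantile normalization turned TUBA1B (-0.0838), TUBA1C (-0.22) and TUBB4B (-0.138) in DMSO and TUBA1B (-0.0211), TUBA1C (-0.157) and TUBB3 (-0.057) in erlotinib. Median centring turned TUBA1C in erlotinib (-0.0154), and averaging all probe sets turned TUBA1B (-0.0017) and TUBB3 (-0.0852) there. Leaving out 1 array gave -0.0964 to 0 for TUBA4A in DMSO, and in erlotinib -0.0282 to 0.0788 for TUBA1C and -0.0244 to 0.085 for TUBB3. TUBA1C in DMSO passed with probe sets averaged (adjusted p = 0.0135), in the compared arrays alone (0.0229) and without HCC827 erlotinib replicate 3 (0.0449). The cause of these turns was not tested.

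Among the list genes, TUBB4A in PC9 was 0.12 with a constant of 1 and 0.0465 after quantile normalization (-0.0763 to 0.129 leaving out 1 array), and TBCD in PC9 was -0.0421 after quantile normalization and -0.0594 with median centring (-0.0196 to 0.17 leaving out 1 array). In HCC827, PFDN2 was -0.0562 with median centring (-0.0081 to 0.0637 leaving out 1 array), CLASP1 -0.115 and FIGN -0.0912 with probe sets averaged, TUBD1 0.0873 and TTLL3 -0.0263 with the actin ratio as a covariate. Without HCC827 erlotinib replicates 2 and 3, TUBD1 was 0.0851 and CCT7 -0.021, and leaving out 1 array gave -0.0809 to 0.0039 for TUBD1. None of these changes passed the test as reported. Other calls held but shrank by over 1.5 times. With probe sets averaged, TUBB1 was -0.54 in PC9 and -0.44 in HCC827, STMN3 -0.98 and -0.39, TUBD1 0.25, CLASP1 0.34 and FIGN 0.71 in PC9, and MAP9 0.59 in HCC827. With a constant of 32 TUBB1 was -0.56 and -0.57, and SCAPER in PC9 was 0.26 after quantile normalization. Leaving out 1 array ended the PC9 call of VASH2 in 9 of 12 cases (adjusted p up to 0.161), the PC9 call of MAP1B without PC9 replicates 1 or 3 of either treatment (up to 0.0954), and the HCC827 call of DCLK2 without HCC827 replicates 1 or 3 of either treatment (up to 0.111).

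Probe sets tested singly gave 15694 calls in PC9, 12521 in HCC827, 18893 between the lines in DMSO and 19350 in erlotinib, over 26048 probe sets in place of 13165 genes. With the actin covariate the HCC827 calls were 4152 and the list genes called there 22, and without HCC827 erlotinib replicates 2 and 3 the calls were 4402.

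Replicate numbers occur in every group, and deviations of arrays with the same number correlated between -0.26 and 0.19. With 3 arrays per group this cannot decide whether the numbers pair the arrays, and the main fit treated them as unpaired. With replicate number as a block the calls were 8438, 6661, 9961 and 10007 (PC9, HCC827, DMSO, erlotinib), with 60 list genes in PC9 and 39 in HCC827. Probe sets near the table median, such as TUBB2B and MAP2 in untreated HCC827, have the least certain folds.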
